A study of Ceratitis capitata with 12 samples.

Results

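In adult male medflies (Ceratitis capitata), 7 measurements were over 2-fold higher in the lowest head/thorax (HT) sample than in the highest abdomen (Ab) sample after 20 was added to both. All but 1 of them, which is matched to 1 gene, are listed for a whole stretch of genes. The deposited files give 1 abundance for each RefSeq transcript, but the same 12 sample values recur over many transcripts. Each distinct set of 12 values was therefore treated as 1 measurement of a gene stretch. The sources used here do not say how values came to be shared, and whether each is 1 count over a longer piece of the genome, listed for every transcript on it, was not tested. Members were the sets whose abundances summed to at least 100 over the 12 samples and for which log2((lowest HT + 20) / (highest Ab + 20)) was above 1. This gave 7 of the 145 sets that passed the minimum sum (4.83%), which hold 1844 of 13479 transcripts (13.7%). All 20149 listed transcripts hold 216 sets. The members were thus chosen by their HT and Ab abundances, so the difference between HT and Ab is described below and not tested.

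The flies were wild-type males of the Toliman strain, 7 days after eclosion, taken at generation 60 of selection from 3 lines kept as larvae on ASG (sucrose, 684 kcal/L) and 3 lines kept on Starch (291 kcal/L). Before sampling, all lines passed 2 generations on the same glucose-based larval food, and their adults were fed sugar with yeast hydrolysate. Each of the 12 samples is 1 pool of 17 to 22 body parts of 1 line, and each diet gave 3 HT and 3 Ab samples, so that n counts lines. HT and Ab of a line were cut from males of the same line.

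An insect's head and thorax hold the brain, the eyes, the antennae and the flight muscles, while the abdomen of a male holds the testes, the accessory glands, much of the gut and much of the fat body. Genes used in one of these organs only are therefore often higher in one body part. In bulk samples of this kind, fewer cells of a type and less RNA per cell cannot be told apart. Marker genes of these organs could not be used to check the labels: the gene table gives symbols and no descriptions, and a value shared by a stretch is not the level of any 1 gene in it.

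Each stretch is called here by its first matched gene in accession order. Matched to the gene table of assembly Ccap_2.1, 1433 of the 1844 transcripts belong to 976 genes, and 411 did not match. The LOC101454044 stretch is the largest, with 834 transcripts of 443 genes. The Fst2 stretch holds 353 transcripts of 198 genes, the LOC101452992 stretch 265 of 119, the LOC101462917 stretch 187 of 98 and the LOC101459346 stretch 180 of 106. The LOC101457420 stretch holds 20 transcripts of 11 genes, and the LOC101460594 stretch 5 transcripts, of which 3 matched that gene alone and 2 did not match. Of the 976 genes, 223 have at least 2 listed transcripts, and 0 have transcripts in more than 1 set.

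The transcripts of a stretch lie together in 1 series of accessions, and only in part in the other series and in gene order. The rule used none of these orders. In the older of the 2 series of predicted transcript accessions, each of the 7 stretches is a single uninterrupted run of listed transcripts. The run of LOC101454044 has 500 transcripts, while LOC101460594 has only 1 there, for which a single run is a given. The same holds for 164 of the 165 sets with at least 2 transcripts in that series (99.4%), so contiguity is not particular to the 7. In the newer series the LOC101459346 and LOC101457420 stretches are 1 run each, but LOC101460594 is 2 runs, LOC101454044 3, Fst2 6, LOC101462917 10 and LOC101452992 68 runs of its 113 transcripts there. Gene order was taken from Ccap_2.1 after leaving out genes without a listed transcript, so such genes may lie within a block. In that order the 976 genes fall into 30 blocks of neighbouring genes, of which 4 are single genes. The LOC101462917 stretch is 1 block of 98 genes from LOC101462917 to LOC101456983. The LOC101452992 stretch is 2 blocks, 78 genes from LOC101452992 to LOC101452569 and 41 from LOC101452393 to LOC105665227. The LOC101459346 stretch is 4 blocks of 4 to 42 genes, the largest ones running from LOC101449099 to LOC101450781 and from LOC101451812 to LOC101461024. The Fst2 stretch is 6 blocks, the largest being 68 genes from LOC101461731 to LOC101450050. The LOC101454044 stretch is 13 blocks, the largest being 132 genes from LOC101449759 to LOC105664907. The LOC101457420 stretch is a block of 9 genes from LOC101457420 to LOC101459018 and the single genes LOC101459514 and LOC101459326. The study used assembly Ccap1.1 and transcripts from NCBI, so these blocks describe the order in Ccap_2.1 only.

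**Figure D1:**
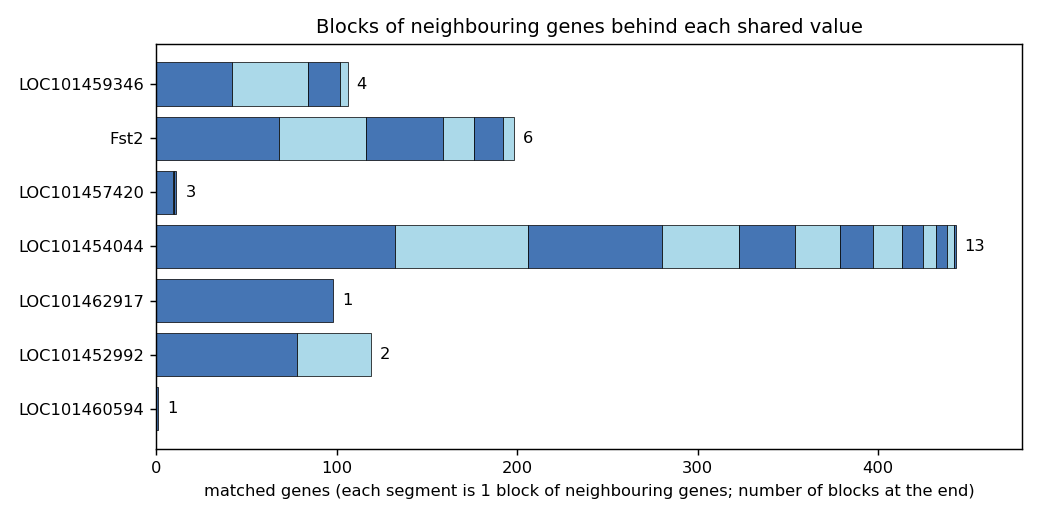
Matched genes of each stretch on the horizontal axis (number of genes), divided into blocks, with the number of blocks at the end of each bar. Genes of a block follow each other in the Ccap_2.1 gene list once genes without a listed transcript are left out. The LOC101462917 stretch is 1 block of 98 genes, whereas the 443 genes of the LOC101454044 stretch lie in 13 blocks.

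Among the 130 sets with transcripts in the older accession series that passed the minimum sum, the LOC101462917 and LOC101457420 stretches follow each other directly. The Fst2 and LOC101454044 stretches are separated by 1 set of 2 transcripts, that of LOC101453508, whose body parts overlapped (27 to 89 in HT, 19 to 124 in Ab). Of the 12 positions next to a member that hold other sets (the LOC101453508 set holds 2 of them), 1 had every HT sample above every Ab sample. That set, of 171 transcripts after the LOC101452992 stretch, was listed at 7076 to 7992 in HT and 3284 to 4606 in Ab. Over all 145 sets, 20 (13.8%) had HT wholly above Ab. That count includes the members themselves, for which the rule requires HT above Ab. It is therefore not a background for the positions that hold other sets, and no conclusion is drawn from comparing them. The set before the Fst2 stretch, a single transcript of LOC101462518, was listed at 0 in all HT samples and at 57 to 162 in Ab.

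Names were given for 13 of the genes in the study's lists of transcripts that differ between diets, or in its primer list. These lists were drawn up from the same flies, so they say nothing about which genes are typical of the stretches. In the Fst2 stretch they name Fst2 itself (described as a female reproductive accessory gland-specific transcript), a general odorant-binding protein 19d-like gene (LOC101448620), glucose dehydrogenase (LOC105664851), an angiopoietin-4-like gene (LOC101449627), protein vreteno (LOC101460373), pancreatic lipase-related protein 2 (LOC101452111), a mucin-17-like gene (LOC101461612) and cell wall protein DAN4 (LOC101461436). Odorant-binding proteins carry small hydrophobic molecules in the fluid of insect sensory hairs, and vreteno is known from Drosophila as a protein of the piRNA pathway, which silences transposons in the germ line. The LOC101454044 stretch holds a pupal cuticle protein Edg-78E gene (LOC101449446) and a putative serine protease (LOC101462043), besides LOC105664904, which has no description. The LOC101459346 stretch holds a tigger transposable element-derived protein 1-like gene (LOC101449099) and LOC101462273, which has no description either. The remaining 4 stretches hold no gene named there.

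Primers for quantitative PCR had been designed for 2 of these genes, and they are shown because they mark single genes inside the stretches. They are given 5′ to 3′ in lower case with no part marked, and their chromosome is not assigned in the gene table.
Fst2 forward primer: gacggaggtgaagaagccag
Fst2 reverse primer: ctgttttcggtggcatatcgga
LOC101462043 forward primer: gaacgtgtggtggcagaaac
LOC101462043 reverse primer: tagttgaggtcaaaccgggc
The paper ran quantitative PCR on its genes of interest with RNA from the same extractions, and those results are not used here. The abundances below belong to the whole stretch around each of these genes and are not measurements made with the primers.

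Over the 145 sets the log2 distance between the nearest bounds of HT and Ab had a median of -0.81, and in the 7 stretches it lay between 1.06 and 3.55 with a median of 2.81. The member just inside the threshold was the LOC101460594 stretch at 1.06. The set just outside it was that of LOC101454301, with 68 transcripts, at 0.93, with 1192 to 1955 in HT and 318 to 614 in Ab. The next below were the sets of LOC101463275 at 0.70, with 53 to 186 in HT and 9 to 25 in Ab, and of LOC101454196 at 0.62, the neighbour of the LOC101452992 stretch described above. In the plot of ranked distances the members fall into 2 clumps, 4 between 2.81 and 3.55 and 3 between 1.06 and 1.56, and no set lies between these clumps. The offset of 20 lowers the distance most at low abundance, and the 3 of the lower clump had at most 19 in any Ab sample. The gap therefore depends in part on the offset.

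**Figure D2:**
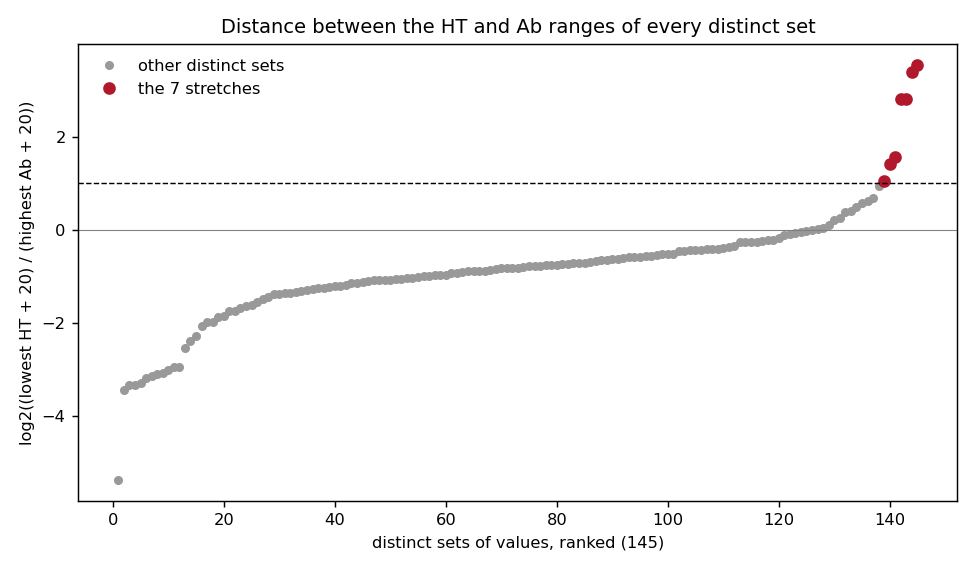
Each point is 1 of the 145 distinct sets of values, ranked along the horizontal axis, and the vertical axis gives log2 of the lowest HT value over the highest Ab value with 20 added to both. The dashed line at 1 is the threshold of the rule, and the 7 stretches above it are red, 4 of them between 2.81 and 3.55.

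The listed abundances are not corrected for length, so levels are compared within a stretch only. The 7 stretches together made up 7.32% to 12.0% (median 10.4%) of the summed distinct abundances of each HT sample, but 0.484% to 0.544% (median 0.524%) of those of each Ab sample. These sums ranged from 51773 to 65028 for HT and from 45837 to 63282 for Ab. The lowest share in HT belonged to Starch line 1, which also had the largest summed abundance.

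The LOC101459346 stretch had the largest log2 distance between the nearest bounds of HT and Ab, though not the largest ratio of summed abundances, which was 20.1 here and 58.3 for the LOC101460594 stretch. It was listed in HT at 1268, 1647 and 1325 (ASG lines 1 to 3) and 1608, 1398 and 1487 (Starch lines 1 to 3). Its Ab values were 59, 49 and 89 (ASG) and 78, 69 and 90 (Starch). The means were 1456 ± 153 (SD, n = 6) in HT and 72.3 ± 16.5 (SD, n = 6) in Ab. All 6 lines lay close together in HT, where the coefficient of variation was 10.5%, the smallest of the 7.

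The Fst2 stretch was listed in HT at 760, 796 and 628 (ASG) and 723, 704 and 575 (Starch). The Ab samples read 11, 37 and 28 (ASG) and 31, 25 and 27 (Starch). The HT mean was 698 ± 82.6 (SD, n = 6) and the Ab mean 26.5 ± 8.67 (SD, n = 6). ASG line 1 was the lowest Ab sample, at 11 where the others lay between 25 and 37, and in HT it was the second highest. The HT values had a coefficient of variation of 11.8%, and the HT samples of the 2 diets overlapped.

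The LOC101454044 stretch, the largest, was listed in HT at 3546, 2319 and 2971 (ASG) and 1330, 3632 and 3173 (Starch). In Ab it was listed at 130, 168 and 103 (ASG) and 158, 172 and 166 (Starch). Starch line 1 stood apart in HT, at 1330 where the other 5 lines lay between 2319 and 3632, but not in Ab. The same HT sample was the highest of the 6 for 78 of the 145 sets (53.8%) and the lowest for only 6 (4.14%). The low abundance of this stretch in Starch line 1 therefore went against the direction of most sets in that library.

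The LOC101457420 stretch was listed in HT at 403, 468 and 580 (ASG) and 611, 526 and 311 (Starch). Abdomens gave 21, 18 and 24 (ASG) and 27, 6 and 26 (Starch). Starch line 3 was the lowest HT sample and Starch line 2 the lowest Ab sample. Its neighbour in accession order, the LOC101462917 stretch, was listed in HT at 113, 143 and 161 (ASG) and 128, 167 and 95 (Starch), and in Ab at 13, 5 and 11 (ASG) and 19, 3 and 3 (Starch). Its HT mean was 134.5 ± 27.9 (SD, n = 6) and its Ab mean 9.0 ± 6.45 (SD, n = 6). Both neighbours had Starch line 3 as the lowest HT sample.

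The LOC101452992 stretch was listed in HT at 124, 186 and 209 (ASG) and 245, 140 and 84 (Starch). The values in Ab were 10, 19 and 16 (ASG) and 15, 5 and 17 (Starch). The Starch lines spread 2.92-fold in HT and enclosed all 3 ASG lines.

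The LOC101460594 stretch, the only one with a single matched gene, was listed in HT at 36, 78 and 92 (ASG) and 118, 56 and 28 (Starch). The Ab samples had 2, 0 and 0 (ASG) and 2, 3 and 0 (Starch). The 6 HT samples sum to 408 and the 6 Ab samples to 7, a ratio of 58.3 that rests on few Ab counts. It had the largest spread between lines in HT, 4.21-fold, and its order of lines in HT was the same as that of the LOC101452992 stretch: Starch 1, ASG 3, ASG 2, Starch 2, ASG 1 and Starch 3.

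**Figure D3:**
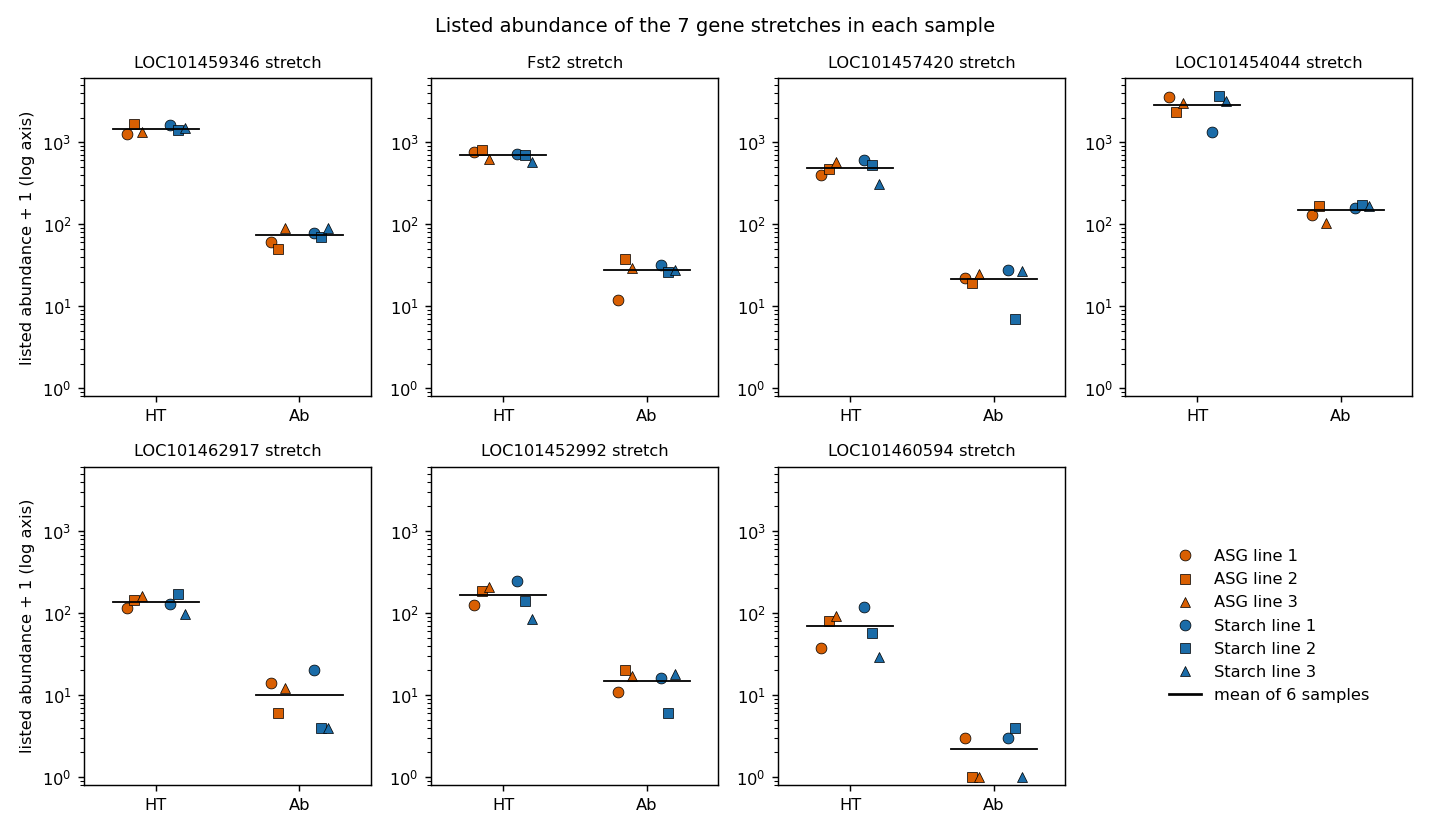
Listed abundance plus 1 on a log axis for the 7 stretches, with HT and Ab on the horizontal axis, 1 point for each sample, colour for the diet and shape for the line, and a bar for the mean of 6 samples. In every panel the HT points lie above the Ab points, as the rule requires, and the diets overlap in both body parts.

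Starch line 3 was the lowest HT sample in 5 of the 7 stretches, and in 46.2% of the 145 sets. Starch line 1 was the highest HT sample in 3 of the 7, and in 53.8% of all sets. These 2 orders were found in many other sets too. Some other orders were common over all sets but rare or absent among the 7, or the reverse. ASG line 3 was the highest HT sample in 0 of the 7 but in 31.0% of all sets. ASG line 1 was the lowest in 1 of the 7 but in 43.4% of all sets. ASG line 2 and Starch line 2 were each the highest in 2 of the 7, against 9.66% and 8.28% of all sets. Libraries were not of equal total, and the reason for these orders was not tested. Over the 6 HT samples the coefficient of variation ranged from 10.5% for LOC101459346 to 50.7% for LOC101460594, and it is not set against other sets because the rule used the lowest HT value.

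HT and Ab of each line were also set side by side as log2((HT + 20) / (Ab + 20)). For the LOC101454044 stretch this was 4.57, 3.64 and 4.60 in ASG lines 1 to 3 and 2.92, 4.25 and 4.10 in Starch lines 1 to 3. For the LOC101459346 stretch it was between 3.63 and 4.59 in ASG and between 3.78 and 4.05 in Starch. For the Fst2 stretch it was between 3.75 and 4.65 in ASG and between 3.66 and 4.01 in Starch. The LOC101457420 stretch ranged more widely in Starch (2.85 to 4.39) than in ASG (3.37 to 3.77), as did the LOC101452992 stretch (1.49 to 2.92 in Starch, 2.26 to 2.67 in ASG). The means over 6 lines were 4.01 ± 0.64 (SD) for LOC101454044, 4.01 ± 0.33 for LOC101459346, 3.96 ± 0.36 for Fst2, 3.63 ± 0.51 for LOC101457420, 2.42 ± 0.42 for LOC101462917, 2.40 ± 0.50 for LOC101452992 and 1.96 ± 0.60 for LOC101460594. The offset of 20 lowers the last 3 most, since their Ab values are at or under it.

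**Figure D4:**
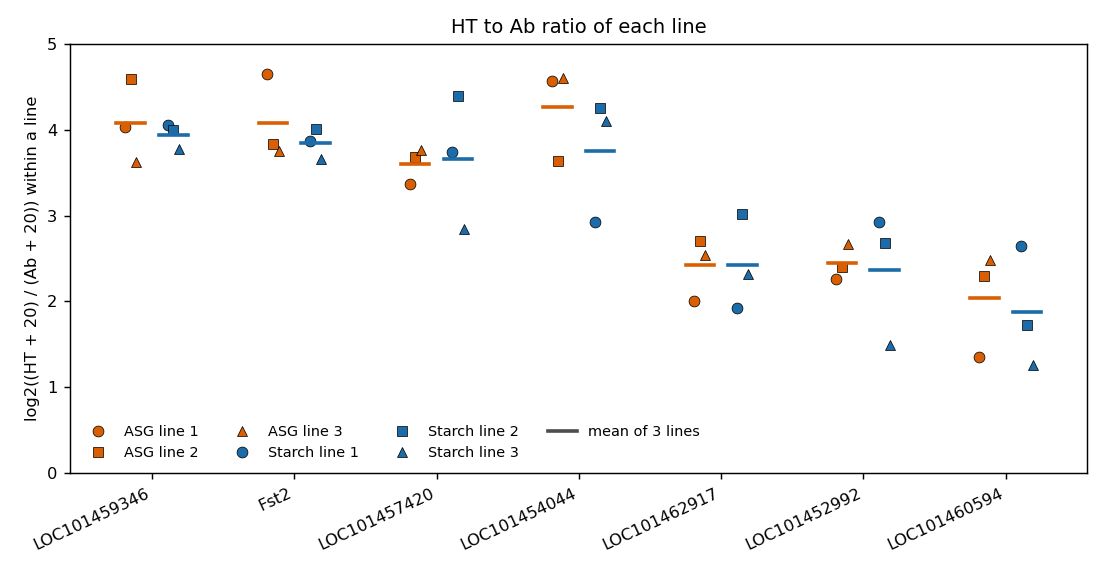
The vertical axis gives log2 of HT over Ab within a line, with 20 added to both, for each of the 7 stretches, with 1 point for each of the 6 lines and a bar for the mean of the 3 lines of a diet. The points of the diets overlap in every stretch, and the lowest point of the LOC101454044 stretch is Starch line 1 at 2.92.

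Diet labels were not used to choose the members, but every line of both diets had to pass the rule. A set with a large diet difference in HT or Ab could thus be left out. Low counts of called members below therefore do not show that these stretches are free of a diet difference. Within the ASG lines only, the rule gave 11 sets, and within the Starch lines only 8. Fewer samples can only loosen the rule, so these counts do not show that sets were lost through a diet difference. The Starch and ASG lines were compared in each body part over all 145 sets, with each set entered once (edgeR's quasi-likelihood test, Benjamini-Hochberg adjustment over the 145). In HT none of the 7 stretches was called, where 3 of the 145 sets (2.07%) were, all higher in Starch. The log2 fold changes of Starch over ASG in HT lay between -0.17 and 0.13, with edgeR adjusted p from 0.94 to 1. The narrowest 95% interval was that of the LOC101457420 stretch, from -0.37 to 0.38 around 0.01. For the LOC101459346 stretch the log2 fold change was 0.13 (95% interval -0.36 to 0.63) and for the Fst2 stretch -0.11 (-0.64 to 0.41). The widest interval was that of the LOC101454044 stretch, from -1.15 to 1.11 around -0.02. That interval takes in 2-fold differences either way. In edgeR, 0 of the 7 had an unadjusted p under 0.05, where 14 of the 145 sets did (9.66%). DESeq2 and limma also called 0 of the 7, where they called 5 and 1 of the 145.

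In Ab none of the 7 was called either, where 1 of the 145 sets (0.690%) was, with Starch the higher. DESeq2 called 10 of the 145 there, 5 towards each diet. Without ASG line 2, edgeR called 17, of which 14 had the larger values in Starch. Neither call list held any of the 7 (0 in each). The log2 fold changes ran from -0.46 for the LOC101452992 stretch (95% interval -1.46 to 0.53, edgeR adjusted p = 0.77) to 1.02 for the LOC101460594 stretch (-2.56 to 4.59, edgeR adjusted p = 0.87). The last value rests on summed abundances of 2 in ASG and 5 in Starch. The LOC101459346 stretch had 0.09 (-0.44 to 0.61) and the LOC101454044 stretch 0.10 (-0.51 to 0.71). In the Fst2 stretch the value was -0.02 (-0.83 to 0.78), in LOC101457420 -0.30 (-1.39 to 0.79) and in LOC101462917 -0.41 (-2.25 to 1.43). These intervals are wide at Ab abundances of 0 to 37, the range of 5 of the 7 stretches. Here too 0 of the 7 had an unadjusted p under 0.05 in edgeR, where 14 of the 145 sets did (9.66%). DESeq2 and limma called 0 of the 7, where limma called 1 of the 145. The ranges of the diets overlapped for all 7 in HT and in Ab. Of the 145 sets, 6.21% in HT (2.76% with Starch and 3.45% with ASG the higher) and 17.9% in Ab (15.2% and 2.76%) had ranges that did not. The rule can leave such sets out, so no conclusion is drawn from the difference.

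**Figure D5:**
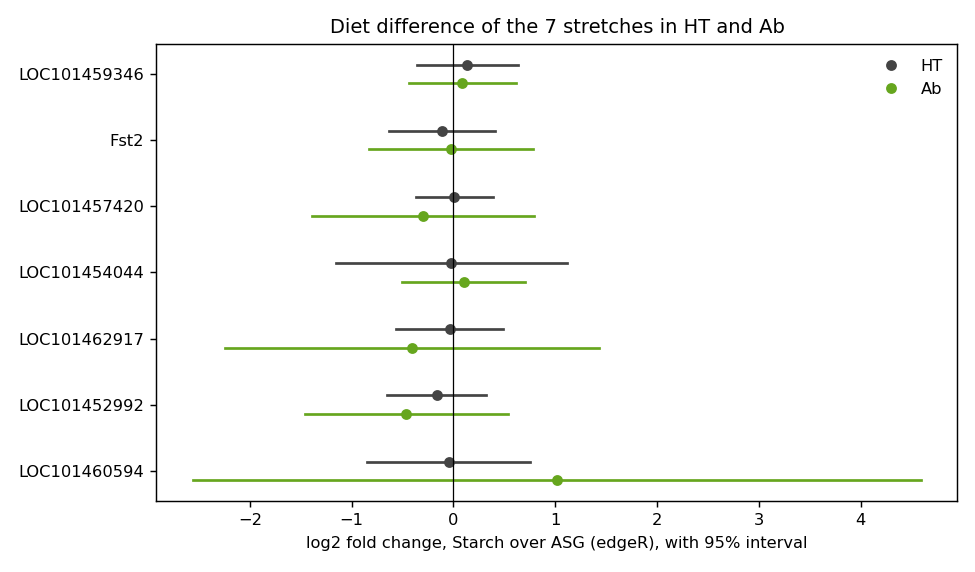
Horizontal axis, log2 fold change of Starch over ASG from edgeR with its 95% interval, for the 7 stretches in HT (black) and in Ab (green), with 3 lines for each diet. Every interval includes 0, and the widest is that of the LOC101460594 stretch in Ab, from -2.56 to 4.59.

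Whether the difference between HT and Ab depended on the diet was tested as an interaction over all 12 samples, with HT and Ab of a line taken as separate samples. No member was called, and neither was any of the 145 sets (0%) in edgeR, limma or DESeq2, with 10 sets (6.90%) at an unadjusted p under 0.05 in edgeR. In the 7 stretches the interaction, as the log2 difference of Starch over ASG in HT minus that in Ab, lay between -0.97 for LOC101460594 (95% interval -4.09 to 2.14) and 0.48 for LOC101462917 (-1.23 to 2.20), with edgeR adjusted p from 0.79 to 1. For the Fst2 stretch it was -0.00 (-1.07 to 1.06), and for the LOC101459346 stretch 0.16 (-0.55 to 0.88). With each line as a block, 0 of the 7 and 0 of the 145 were called, with edgeR adjusted p of the 7 from 0.74 to 0.99.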

How the data were processed

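The 12 libraries were polyA-selected mRNA sequenced single-end over 3 lanes. The authors aligned reads to medfly transcripts with PaTMaN (version not given in the sources used here) and describe subsampling to a fixed number of reads followed by quantile normalisation. Which of these steps the deposited counts have been through is not stated, and their totals differ between samples. The deposited files give a whole-number count for each transcript, called abundance here.

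Identical sets of 12 counts were collapsed and entered once. Sets summing to at least 100 were tested with edgeR 4.0.16 (TMM, quasi-likelihood, Benjamini-Hochberg adjustment) in R 4.3.3, with DESeq2 1.42.0 and limma 3.58.1 (log2 with an offset of 20) as alternatives. Other alternatives were the filter, equal library sizes, all transcripts entered, a replicate block and leaving out each line. The tests were also run on simulated data with a single dispersion, not taken from these data. There edgeR recovered 57% of 2-fold changes in HT, 49% in Ab and 25% for the interaction. Of 4-fold changes it recovered 98%, 98% and 92%. Tables and plots were made in Python 3.11.15. For diet within a body part, the p-values and 95% intervals rest on the spread between 3 lines of each diet. In edgeR the variance of a set is also drawn partly from the other sets. The p-values and intervals of the interaction come from a fit without line, in which HT and Ab of a line count as separate samples. All intervals were calculated from edgeR's log2 fold change and F statistic, with the standard error as the absolute fold change over the square root of F.

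HT and Ab of a line are paired by their origin: deviations from the group means correlated at 0.72, 0.76 and 0.51 in the ASG lines and at -0.04, 0.22 and -0.17 in the Starch lines, across sets, which are not independent replicates. The stretches and lists were chosen with earlier results of these data known. Every stretch was named, with its first and last genes by block for those with large blocks. Lists of gene classes and organ markers, which needed gene descriptions, could not be applied and are not reported. Assembly Ccap_2.1 was used for gene names and neighbours only.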

Additional observations from a re-analysis of the deposited data

How the results depend on the processing

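The range rule gave 7 stretches and, within the ASG lines only, 11. Under its other alternatives it gave 5 to 10, and between 7 and 9 without 1 line. All 7 were kept except with an offset of 50 or a minimum sum of 1000, which kept 5. Fewer lines, an offset of 1 or no filter can only loosen the rule, so keeping the 7 there was fixed in advance. With equal sums, where a member could have been lost, the rule gave 8 sets and kept all 7. For diet in HT, where 3 sets were called, DESeq2 called 5, limma 1, a minimum sum of 1000 1, equal library sizes 1 and the replicate block 0, and leaving out 1 line gave 0 to 2. For diet in Ab, where 1 set was called, DESeq2 called 10, the fit with every transcript entered 0 and the replicate block 1. Leaving out 1 line there gave 0 to 17, the 17 without ASG line 2, 2 without ASG line 1 and 0 without ASG line 3 or any Starch line. The interaction had 0 calls in every fit, the replicate block included. Across all of these fits 0 of the 7 stretches were called, with adjusted p of at least 0.433 in HT, 0.469 in Ab and 0.608 for the interaction. Without Starch line 1, the LOC101462917 stretch had an unadjusted edgeR p of 0.042 in Ab (log2 -1.85) and of 0.014 for the interaction (log2 2.01). In those fits 15 and 9 of the 145 sets had an unadjusted p under 0.05. No other fit gave a member an unadjusted p under 0.05. Same-numbered ASG and Starch lines are separate selection lines. Besides the number they share a sequencing index within each body part, and the correlations of their deviations were -0.64, -0.34 and -0.38 for HT, and 0.39, -0.04 and 0.02 for Ab.

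Uncalled log2 values changed sign in 48 of 267 comparisons, 30 of them with 1 line left out (14 in HT, 7 in Ab and 9 for the interaction, within the ranges given at the end) and 18 under other settings. Of the 18, those in HT were the LOC101457420 stretch with limma (-0.040), equal library sizes (-0.0030) and the replicate block (-0.0053), and the LOC101454044 stretch with DESeq2 (0.019), no filter (0.027), a minimum sum of 1000 (0.0055) and every transcript entered (0.018). With every transcript entered the LOC101462917 stretch had 0.038 and the LOC101460594 stretch 0.043. In Ab it was the Fst2 stretch with limma (0.12), no filter (0.020), equal library sizes (0.13) and the replicate block (0.029). For the interaction it was LOC101459346 with limma (-0.14) and equal library sizes (-0.18), Fst2 with the replicate block (0.017), LOC101454044 with every transcript entered (0.057) and LOC101452992 with limma (-0.081).

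Leaving out 1 line moved the log2 value in HT from -0.31 to 0.11 for Fst2, -0.39 to 0.020 for LOC101452992, -0.29 to 0.38 for LOC101454044, -0.14 to 0.13 for LOC101457420, -0.035 to 0.25 for LOC101459346, -0.45 to 0.22 for LOC101460594 and -0.32 to 0.13 for LOC101462917. In Ab the ranges were -0.22 to 0.33 for Fst2, -0.71 to -0.13 for LOC101452992, -0.14 to 0.29 for LOC101454044, -0.61 to 0.089 for LOC101457420, -0.10 to 0.23 for LOC101459346, 0.29 to 3.85 for LOC101460594 and -1.85 to 0.085 for LOC101462917. For the interaction they were -0.38 to 0.38 for Fst2, 0.07 to 0.82 for LOC101452992, -0.39 to 0.26 for LOC101454044, -0.10 to 0.74 for LOC101457420, -0.18 to 0.37 for LOC101459346, -4.02 to -0.21 for LOC101460594 and -0.13 to 2.01 for LOC101462917. The cause of these changes was not tested.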
